A study of Mus musculus with 38 samples.

Results

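The amyloid precursor family and its secretases were followed in ribosome footprints of primary mouse cortical neurons. The 6 genes were chosen by name, with earlier results of these data known. They were the precursors App, Aplp1 and Aplp2, the beta-secretase Bace1, and the gamma-secretase subunits Psen2 and Ncstn, 6 of 22443 genes with a coding sequence (CDS) in the files. Footprints whose 5′ end lay in the CDS of the longest transcript of each gene were counted. Levels are given as CPM, the count of a gene scaled to a fixed total of CDS counts in each library, and levels of different genes are compared only per kilobase of CDS.

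App is a single-pass membrane protein. Alpha-secretases such as Adam10 or the beta-secretase Bace1 shed its ectodomain, and gamma-secretase then cleaves the remaining stub within the membrane. After Bace1 cleavage this second cut releases amyloid-beta peptides. Aplp1 and Aplp2 are paralogues of App that pass through the same enzymes but lack the amyloid-beta sequence. Psen2 is a presenilin, the catalytic subunit of gamma-secretase, and Ncstn (nicastrin) is the large glycosylated subunit that takes part in substrate selection. App is carried along axons and dendrites, and its family members act in synapse formation and adhesion.

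PL-Ribo-seq joins proximity labelling by the biotin ligase TurboID with ribosome profiling. Cortical neurons from CD-1 mouse embryos carried an inducible lentiviral TurboID. TurboID-PSD95 held the coding and untranslated regions of rat PSD95, a postsynaptic scaffold, and Pan-TurboID had no localization element. A culture here means 1 replicate number of a condition. Each of 19 cultures gave an input, a small share of its monosome fraction, and a streptavidin pulldown of the same fraction. This made 38 libraries in 14 groups. The KCl experiment had 24 libraries, from 3 cultures for each bait at rest and 3 for each bait after depolarization, for which neurons were silenced with TTX and DL-AP5 for 2 h, kept in 55 mM KCl for 1 h and left for 30 min in medium with biotin. In the DHPG experiment, 3 TurboID-PSD95 cultures were silenced for 2 h in the same way, exposed for 10 min to DHPG (100 µM), which activates metabotropic glutamate receptors of group I, and left for 30 min in medium with biotin by the labels. The labels give no silencing for resting cultures, so that silencing and DHPG or KCl cannot be told apart. In the knockdown experiment, TurboID-PSD95 neurons were treated with 20 nM siRNA against eIF4G2, a translation initiation factor, for 72 h, and were left at rest or depolarized, with 2 cultures each. All neurons received cycloheximide for 2 min and biotin, for 30 min by the labels. By the study's methods cycloheximide was added before the biotin. The knockdown groups had no control-siRNA group analysed here, and the untreated groups set beside DHPG and the knockdown came from the KCl experiment, so that experiment and treatment cannot be told apart in those comparisons.

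Libraries held 5906281 to 35643247 counts in total and 2104916 to 14967945 counts in the CDSs used. Replicates varied more than sampling noise, with a chi-square per gene of 8.66 to 47.9 in the KCl experiment, 1.47 to 8.96 with DHPG and 2.81 to 4.69 in the knockdown. Eif4g2 was at 278 to 331 CPM in knockdown inputs and at 447 to 796 CPM in the inputs of the KCl experiment. Summed neuron markers (8 genes) lay between 4788 and 10185 CPM, astrocyte markers (10 genes) between 273 and 1819 CPM, and microglia markers (9 genes) between 0 and 26.9 CPM.

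The 2 longer precursors differ in an exon that codes for a Kunitz protease inhibitor domain. Neurons are known to make mostly App without it, while glia and other cells include it. The 30 bases across each junction are shown because these exons separate the precursors in the footprints. Each line holds 15 bases of the exon before it and 15 bases after, 5′ to 3′ on the transcript strand of GRCm38.p6 (mm10), and capitals mark the first bases of the Kunitz exon. The App junctions lie on the minus strand and join chr16:85056324-85056338 to chr16:85043729-85043743 with the exon or to chr16:85030351-85030365 without it. The Aplp2 junctions, also on the minus strand, join chr9:31168708-31168722 to chr9:31167714-31167728 or to chr9:31164659-31164673.
App with the Kunitz exon: aggaggtggtccgagAGGTGTGCTCTGAAC
App without the Kunitz exon: aggaggtggtccgagttcccacgacagcag
Aplp2 with the Kunitz exon: ttcacgatgttaaagCTGTCTGCTCCCAGG
Aplp2 without the Kunitz exon: ttcacgatgttaaagttcccccgactcccc

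Footprints in the Kunitz exon of App, CDS segment 7 with 168 nt, were rare in all 38 libraries. Their density per nucleotide had a median of 1.95% of the density over the App segments that all isoforms share, with a range of 0% to 9.26% and 0 to 120 counts per library. The next App segment, an exon of 57 nt that codes for the OX-2 domain, had a median of 1.43% and a range of 0% to 10.1%. The Kunitz exon of Aplp2, also segment 7 with 168 nt, was used throughout, at a median of 102% of the shared Aplp2 segments and a range of 72.1% to 151%. The footprints of App thus came almost wholly from the form without the inhibitor domain, and those of Aplp2 from a form with it. The exon of 54 nt near the membrane, App segment 15, was read at a median of 39.7%, with a range of 14.1% to 80.6%. Over all libraries pooled it stood at 46.5%, and single shared segments of App stood at 54.9% to 202%. Shared segments of the paralogues went lower, to 36.9% in Aplp2 (75 nt) and 8.03% in Aplp1 (24 nt), each against its own gene. The density in a single short exon therefore does not show how often that exon was used.

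The App Kunitz exon was read at low and varied levels in inputs. It stood at 1.48% to 3.67% in resting and at 0.36% to 3.80% in depolarized inputs of the KCl experiment, at 0.58% to 1.10% in DHPG inputs, at 3.84% and 4.90% in resting knockdown inputs and at 8.66% and 9.26% in depolarized knockdown inputs. The DHPG inputs were below all resting inputs and within the range of the depolarized ones, and the knockdown inputs were above all inputs of the KCl experiment, the lowest of them at 3.84% against 3.80%. No test was made of these shares, which rest on 2 to 120 counts per input. Summed astrocyte markers stood at 1001 to 1819 CPM in resting and at 907 to 1209 CPM in depolarized TurboID-PSD95 inputs. With Pan-TurboID they stood at 1010 to 1641 and 926 to 1743 CPM. They stood at 317 to 324 CPM in DHPG inputs, and at 1023 to 1068 and 1283 to 1385 CPM in resting and depolarized knockdown inputs. Summed oligodendrocyte lineage markers (Mog at 0) stood at 239 to 600.2 and 159 to 252 CPM in resting and depolarized TurboID-PSD95 inputs. They stood at 45.2 to 48.7 CPM in DHPG inputs, and at 183 to 191 and 176 to 193 CPM in resting and depolarized knockdown inputs. Summed microglia markers stood at 1.25 to 5.63 CPM in the inputs of the KCl experiment, at 2.67 to 4.72 CPM in DHPG inputs, at 14.2 to 16.1 CPM in resting knockdown inputs, with Tmem119 at 0, and at 17.3 to 26.9 CPM in depolarized knockdown inputs, with P2ry12 at 0. The part of these markers in the Kunitz shares was not tested.

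Per kilobase of CDS, App had the highest footprint level of the 6 genes in 36 of 38 libraries, and Psen2 the lowest in all 38. The App length of 2313 nt includes the Kunitz and OX-2 exons (168 and 57 nt), which were hardly read. App values per kb, and its ratios to other genes below, are therefore lower than over the exons that were read. Over all libraries App averaged 1133 CPM per kb, rank 45 of 12963 genes, followed by Aplp1 with 566 CPM per kb at rank 148. Aplp2 held rank 245, Ncstn rank 1641, Bace1 rank 2925 and Psen2 rank 6118. The order App, Aplp1, Aplp2, Ncstn, Bace1, Psen2 was seen in 25 of 38 libraries. The other orders exchanged Aplp1 with Aplp2, Ncstn with Bace1 or both, and in 2 libraries Aplp2 stood above App and Aplp1. The precursors thus had higher footprint levels than the secretases in each library.

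**Figure D1:**
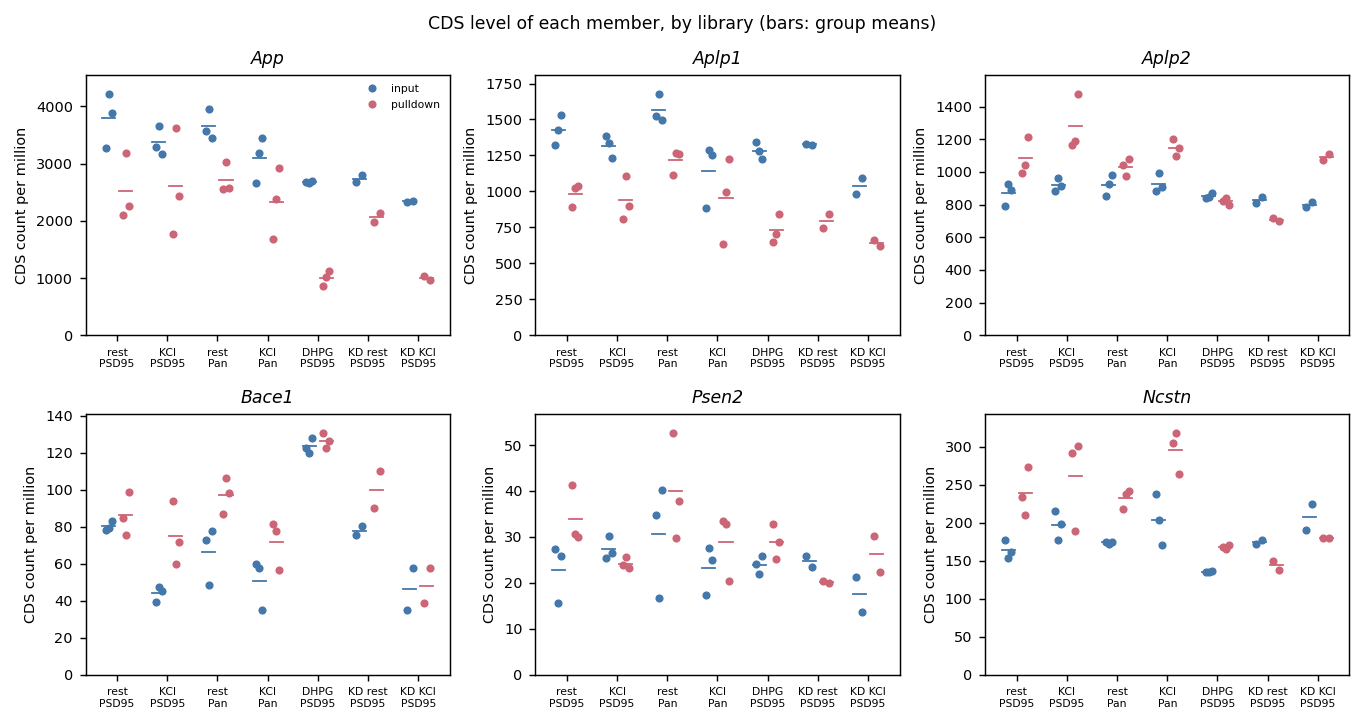
CPM of the 6 genes in the 14 groups, on linear axes that start at 0 and differ between genes, with 1 point per library (inputs in blue, pulldowns in red) and a bar for each group mean. KD stands for the eIF4G2 knockdown and Pan for Pan-TurboID. App pulldowns lie below their inputs, with the DHPG and depolarized knockdown pulldowns at the bottom (means of 999 and 997 CPM), and Bace1 is higher in DHPG libraries than elsewhere.

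The sources of these values are 6 well-separated loci in mm10. The App CDS spans chromosome 16 from 84955331 to 85173558 on the minus strand in 18 exon segments (2313 nt). The Aplp1 CDS spans chromosome 7 from 30435293 to 30445468 on the minus strand in 17 segments (1965 nt), and that of Aplp2 chromosome 9 from 31150871 to 31211727 on the minus strand in 17 segments (2256 nt). Bace1 lies on chromosome 9 from 45839028 to 45860295 on the plus strand in 9 segments (1506 nt). Psen2 and Ncstn both lie on the minus strand of chromosome 1, Psen2 from 180227573 to 180245754 in 10 segments (1347 nt) and Ncstn from 172066674 to 172082682 in 17 segments (2127 nt). App overlaps Gm49227, Bace1 overlaps Gm16536 and Gm49338, and Ncstn overlaps Copa, all on the opposite strand. Whether counting used the strand is not stated. Counts per library were lowest for Psen2, with 32, and for Bace1, with 94, and were at least 333 for the others.

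The precursors parted between input and pulldown. App and Aplp1 were lower in the pulldown than in the input of the same culture in 19 of 19 cultures, while Aplp2 was higher in 12 of 12 cultures of the KCl experiment. Averaged over cultures, the log2 ratio of pulldown over input was -0.70 ± 0.45 (SD, n = 19) for App, from -1.64 to -0.01, and -0.55 ± 0.24 (SD, n = 19) for Aplp1, from -1.04 to -0.03. Aplp2 was higher in 14 cultures and lower in 5, which were the DHPG and the resting knockdown cultures. Over all genes the median of this ratio lay between -0.16 and -0.02 in each culture. How many of all genes moved one way in every culture, or without overlap between groups in CPM, was not counted. The counts of cultures and of groups without overlap, here and below, therefore have no background.

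In resting TurboID-PSD95 neurons, App stood at 3275, 4220 and 3893 CPM in the inputs and at 2100, 3182 and 2260 CPM in the pulldowns of the same cultures. All 3 pulldowns were below all 3 inputs. Aplp1 stood at 1326, 1425 and 1528 CPM in the inputs and at 893, 1021 and 1035 CPM in the pulldowns, again without overlap. Aplp2 ran the other way, with 793, 929 and 890 CPM in the inputs and 995, 1044 and 1212 CPM in the pulldowns. Each Aplp2 pulldown was above every input. In edgeR's quasi-likelihood test, which called 25.0% of 13059 genes at a Benjamini-Hochberg adjusted p of 0.05, the log2 changes were -0.50 (SE 0.21, adjusted p = 0.0872) for App, -0.44 (SE 0.19, adjusted p = 0.0799) for Aplp1 and 0.41 (SE 0.16, adjusted p = 0.0588) for Aplp2. None of the precursors passed that test. With the culture as a block, where 42.2% of genes passed, the edgeR adjusted p was 0.00155 for App, 0.00219 for Aplp1 and 0.00367 for Aplp2, and all of these passed.

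In depolarized TurboID-PSD95 neurons the order was kept, with more spread. App stood at 3289, 3656 and 3176 CPM in inputs and at 1770, 3627 and 2431 CPM in pulldowns, and replicate 2 hardly differed between them. Aplp1 had 1382, 1338 and 1234 CPM in inputs against 806, 1106 and 900 CPM in pulldowns. Aplp2 had 883, 962 and 916 CPM in inputs against 1165, 1192 and 1479 CPM in pulldowns. The groups overlapped for App and did not for Aplp1 and Aplp2. With 12.8% of all genes called, Aplp2 rose by 0.52 on the log2 scale (SE 0.16, edgeR adjusted p = 0.0347), and App (-0.34, adjusted p = 0.283) and Aplp1 (-0.45, adjusted p = 0.0957) missed the threshold. Without replicate 1, 2 or 3 the edgeR adjusted p of Aplp2 was 0.0801, 0.0743 and 0.414. With the culture as a block, which called 34.7% of genes, App (0.0188), Aplp1 (0.00233) and Aplp2 (7.26e-04) had edgeR adjusted p-values below the threshold.

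Pan-TurboID, which is not directed to dendrites, gave ratios of the same sign. Resting Pan-TurboID pulldowns had log2 changes of -0.34 for App, -0.28 for Aplp1 and 0.25 for Aplp2, and depolarized ones -0.37, -0.23 and 0.36, with none of the 6 genes called where 9.84% and 9.31% of all genes were. With the culture as a block, where 33.2% and 32.1% of genes passed, App passed in both states (edgeR adjusted p = 0.0326 and 0.0177), Aplp1 only at rest (0.0499) and Aplp2 only after depolarization (0.0142). The difference between the baits was itself tested. Averaged over rest and depolarization, the log2 difference of TurboID-PSD95 over Pan-TurboID ratios lay between -0.19 (Aplp1) and 0.16 (Aplp2), with an edgeR adjusted p of 1.00 for each of the 6 genes, in a test that called 0.00766% of genes. The SE of these differences was 0.16 to 0.29. The change of the TurboID-PSD95 ratio with depolarization called 0.00% of genes and none of the 6, with values from -0.80 (Psen2, SE 0.42) to 0.62 (Bace1, SE 0.34).

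**Figure D2:**
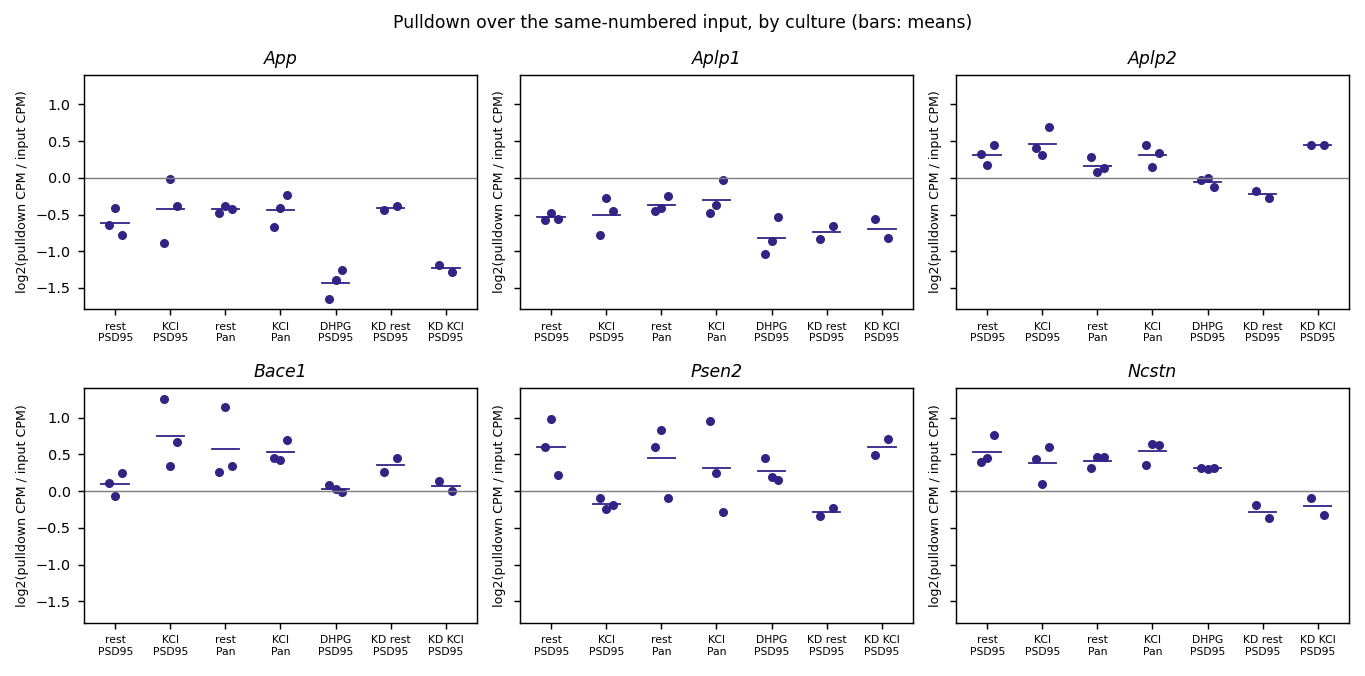
Log2 ratio of pulldown over input CPM for each of the 19 cultures, by gene and condition, with 1 point per culture, a bar for each mean and a grey line at 0. App and Aplp1 lie below 0 in every culture, and Aplp2, Psen2 and Ncstn change sides between conditions.

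A ratio of precursors within 1 library does not depend on how libraries were scaled. Its change from input to pulldown restates the separate changes given above and is not further evidence. Other pairs of genes were not set beside it. The ratio of App over Aplp2, each per kb of CDS, fell from input to pulldown in 19 of 19 cultures. Its mean was 4.24 in resting TurboID-PSD95 inputs and 2.28 in their pulldowns, 3.57 and 2.02 after depolarization, 3.89 and 2.58 with resting Pan-TurboID, and 3.25 and 1.99 with depolarized Pan-TurboID. In DHPG libraries it went from 3.06 to 1.19. In the knockdown it went from 3.22 to 2.84 at rest and from 2.85 to 0.892 after depolarization. The value of 2.84 rested on App CDS segments 2 and 3 and without them it was 1.68 against 3.36 in the inputs. All pulldowns lay below all inputs in 7 of 7 conditions, with or without these segments. Aplp1 over Aplp2 fell in 19 of 19 cultures, without overlap in 6 of 7 conditions, whereas App over Aplp1 fell in 13 of 19, without overlap in 2 of 7.

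**Figure D3:**
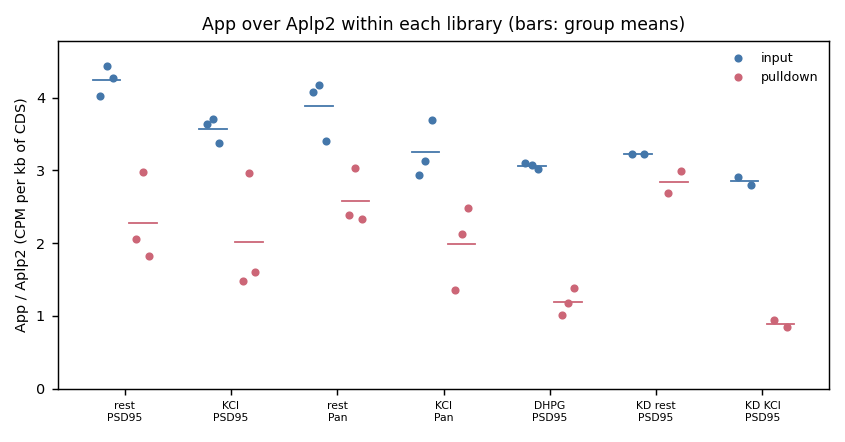
Ratio of App over Aplp2, each in CPM per kb of CDS, in every library, with 1 point per library (inputs in blue, pulldowns in red) and a bar for each group mean. The pulldowns lie below the inputs in each of the 7 conditions, and the depolarized knockdown pulldowns reach a mean of 0.892. Without App segments 2 and 3 the mean of the resting knockdown pulldowns is 1.68, not the plotted 2.84.

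DHPG gave the widest gap for App. App stood at 2680, 2655 and 2702 CPM in the inputs and at 857, 1012 and 1128 CPM in the pulldowns. Aplp1 stood at 1341, 1283 and 1223 CPM in the inputs and at 651, 706 and 842 CPM in the pulldowns. Both pulldown groups were far below their inputs. Aplp2 was nearly level in CPM, with 842, 844 and 872 in the inputs and 824, 840 and 797 in the pulldowns. In edgeR's fit of these 6 libraries, which called 79.4% of 12349 genes, App fell by 1.24 on the log2 scale (SE 0.07, adjusted p = 3.22e-11) and Aplp1 fell by 0.62 (SE 0.07, adjusted p = 4.16e-07). The direction of Aplp2 depended on the scaling, with lower CPM in the pulldowns, a log2 change of 0.13 with TMM factors (SE 0.05, edgeR adjusted p = 0.0289) and of -0.26 with the trend with CDS length removed. Without replicate 1 or 2 the edgeR adjusted p of Aplp2 was 0.257 and 0.249. Most genes were called in this comparison, so that a call is near the background.

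In eIF4G2 knockdown neurons the pulldowns of App and Aplp2 differed between rest and depolarization. App stood at 2678 and 2798 CPM in resting inputs and at 1981 and 2143 CPM in their pulldowns. After depolarization it stood at 2332 and 2348 CPM in inputs and at 1028 and 965 CPM in pulldowns. Aplp2 went from 811 and 846 CPM in resting inputs to 717 and 700 CPM in pulldowns, and from 783 and 817 CPM in depolarized inputs to 1071 and 1112 CPM in pulldowns. The Aplp2 pulldowns were thus below their inputs at rest and above them after depolarization. In edgeR's fit of the 8 knockdown libraries, which called 45.4% of 12325 genes at rest and 48.4% after depolarization, the log2 change of App over input was -0.31 (SE 0.07, adjusted p = 7.82e-04) at rest and -1.13 (SE 0.07, adjusted p = 1.87e-12) after depolarization. That of Aplp2 was -0.12 (SE 0.08, adjusted p = 0.198) and 0.55 (SE 0.08, adjusted p = 1.99e-06). The difference of these changes, a comparison added after the values were seen that called 3.84% of genes, was -0.83 for App (SE 0.10, edgeR adjusted p = 4.52e-06) and 0.67 for Aplp2 (SE 0.11, edgeR adjusted p = 3.66e-04). Aplp1 was lower in both states, from 1329 and 1326 to 745 and 844 CPM at rest and from 982 and 1092 to 663 and 620 CPM after depolarization, with log2 changes of -0.64 and -0.59 and no difference called between them (0.05, SE 0.12). Depolarized knockdown ratios set against those of untreated neurons gave no call among the 6 genes, with 0.0603% of genes called and App at -0.82 (edgeR adjusted p = 0.393). With the culture as a block, which called 2.25% of genes, App passed at -0.77 (edgeR adjusted p = 0.042).

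The App difference in the knockdown rested on 2 of its 18 CDS segments. In both resting knockdown pulldowns, segment 3 (130 nt) held 28.9% and 35.1% of all App CDS counts (2668 and 1810 counts), against 1.76% to 9.61% in the other 36 libraries. Segment 2 (168 nt) held 16.3% and 16.6% there (1503 and 856 counts), against 2.85% to 7.63%. Together these segments held 45.2% and 51.7% of the App counts, against 6.28% to 15.7% elsewhere. They were chosen because the share of each in both these pulldowns was over 2 times its highest share in any other library. Such segments of other genes were left in. A lower App level in this group without them thus follows in part from the choice. Without them, a setting added after the values along the CDS were seen, the log2 change of App over input at rest was -1.13 (SE 0.07, edgeR adjusted p = 1.99e-12), and the difference between depolarized and resting changes was -0.04 (SE 0.10, edgeR adjusted p = 0.911). The rest of the App CDS was thus about as low in resting as in depolarized knockdown pulldowns. Among 9323 genes, 52 (0.558%) had a segment with over 20% of their counts and over 5 times the input share in every resting knockdown pulldown, 110 (1.18%) in the depolarized knockdown, and 0 or 1 in each of the other conditions. What these counts come from was not tested.

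**Figure D4:**
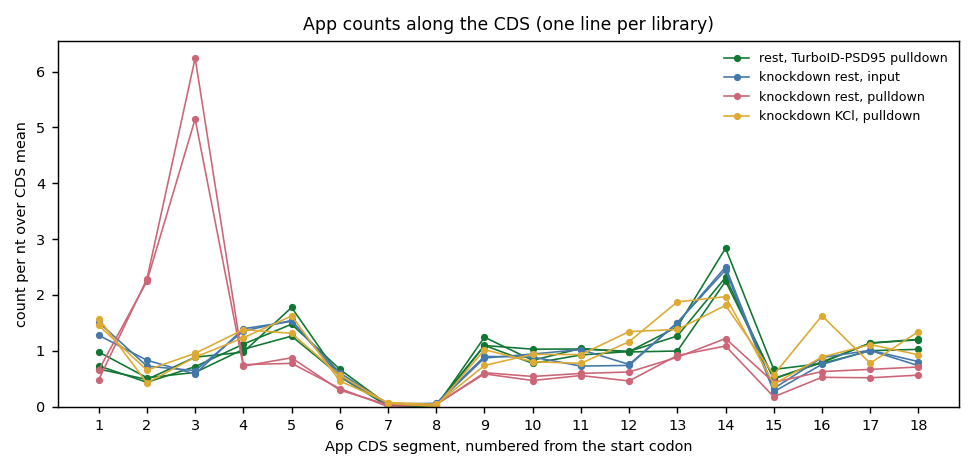
App count per nucleotide in each of the 18 CDS segments, divided by the mean over the whole CDS, with 1 line per library for resting TurboID-PSD95 pulldowns, resting knockdown inputs and pulldowns, and depolarized knockdown pulldowns. Segments 2 and 3 stand out in both resting knockdown pulldowns, and segments 7 and 8, the Kunitz and OX-2 exons, are near 0 in all lines.

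Bace1, the beta-secretase, had lower input levels after KCl. Resting TurboID-PSD95 inputs stood at 78.3, 79.2 and 83.3 CPM and depolarized ones at 39.2, 47.5 and 45.1 CPM. With Pan-TurboID the inputs stood at 73.0, 48.3 and 77.6 CPM at rest and at 59.6, 57.7 and 34.9 CPM after depolarization. The depolarized inputs were lower without overlap in the first case, and the groups overlapped in the second. Over both baits' inputs, in a test that called 15.8% of genes, Bace1 fell by 0.56 on the log2 scale (SE 0.17, edgeR adjusted p = 0.0248). It was the only one of the 6 genes called, beside changes of -0.15 for App, -0.22 for Aplp1, 0.11 for Aplp2, 0.01 for Psen2 and 0.31 for Ncstn. Without replicate 2 the edgeR adjusted p was 0.0651, and without replicate 3 it was 0.302. In the middle and last parts of the CDS alone, where 13.5% of genes passed, the change was -0.28 (edgeR adjusted p = 0.307). Summed oligodendrocyte lineage markers (9 genes, Mog at 0) stood at 239 to 600.2 CPM in resting and at 159 to 252 CPM in depolarized TurboID-PSD95 inputs, and at 260.0 to 534 and 160 to 408 CPM with Pan-TurboID. None of 7 tested passed, and their part in the Bace1 change was not tested.

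In knockdown neurons Bace1 was also lower after depolarization, in inputs and in pulldowns. Inputs stood at 75.3 and 80.6 CPM at rest and at 35.1 and 57.7 CPM after KCl, and pulldowns at 90.0 and 110 CPM and at 38.7 and 57.6 CPM. The resting and depolarized libraries did not overlap in either case. With 2 libraries a group the same held for every member in pulldowns, and for all but Aplp2 in inputs. Summed oligodendrocyte lineage markers stood at 183 to 191 CPM in the resting and at 176 to 193 CPM in the depolarized knockdown inputs. The log2 change was -0.78 in inputs (SE 0.21, edgeR adjusted p = 0.00873), where 19.4% of genes were called, and -1.06 in pulldowns (SE 0.22, edgeR adjusted p = 6.95e-04), where 22.6% were. In inputs the edgeR adjusted p was 0.0922 without replicate 2 of the resting and 0.151 without replicate 1 of the depolarized knockdown. Outside the first part of the CDS the pulldown change was -0.44 (edgeR adjusted p = 0.209, with 22.0% of genes called). In untreated neurons no member was called between resting and depolarized pulldowns, with 6.82% of genes called for TurboID-PSD95 and 5.31% for Pan-TurboID.

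Other members also moved with KCl in the knockdown. In inputs, App fell by 0.22 (SE 0.07, edgeR adjusted p = 0.0275) and Aplp1 fell by 0.35 (SE 0.08, edgeR adjusted p = 0.00294). In pulldowns, Aplp2 rose by 0.63 (SE 0.08, edgeR adjusted p = 1.14e-06), Aplp1 fell by 0.30 (SE 0.08, edgeR adjusted p = 0.0103) and App fell by 1.05 (SE 0.07, edgeR adjusted p = 3.86e-11). Without App segments 2 and 3 the App pulldown change was -0.22 (SE 0.07, edgeR adjusted p = 0.0246), close to its input change, and the App input change was -0.19 (edgeR adjusted p = 0.0585). The App input call was also lost without either resting knockdown input (edgeR adjusted p = 0.107 and 0.283), and the Aplp1 pulldown call without replicate 2 of the resting (0.242) or depolarized knockdown (0.0591). Knockdown inputs set against untreated inputs gave no call among the 6 genes at rest or after depolarization, with 4.00% and 5.59% of genes called. App was lower there by log2 values of -0.45 and -0.50 (SE 0.23 and 0.23, edgeR adjusted p = 0.317 and 0.213).

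DHPG inputs held more Bace1 than resting TurboID-PSD95 inputs. They stood at 123, 120 and 128 CPM, all above the 78.3 to 83.3 CPM at rest. The log2 change was 0.72 (SE 0.11, edgeR adjusted p = 1.07e-04), where 33.2% of 12879 genes were called, and App missed the threshold (-0.41, SE 0.16, adjusted p = 0.0646). Between the same groups 8 of 9 tested astrocyte markers and 5 of 7 tested oligodendrocyte lineage markers were lower, and no neuron marker was lower, with 3 of 8 higher, where 16.8% of all genes were lower and 16.4% higher. Summed oligodendrocyte lineage markers stood at 45.2 to 48.7 CPM with DHPG and at 239 to 600.2 CPM at rest. In footprints of bulk samples, fewer cells of a type, less RNA per cell and fewer ribosomes per RNA cannot be told apart. The part of these markers in the Bace1 difference was not tested.

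Between input and pulldown, Bace1 was higher in the pulldown of 16 of 19 cultures. Resting TurboID-PSD95 pulldowns stood at 84.8, 75.6 and 98.6 CPM, which overlapped the inputs (log2 change 0.20, edgeR adjusted p = 0.576). Depolarized ones stood at 94.1, 60.0 and 71.6 CPM, all above their inputs, and the log2 change of 0.82 passed (SE 0.24, edgeR adjusted p = 0.0306). Without replicate 1 or 3 the edgeR adjusted p was 0.237 and 0.252. Outside the first part of the CDS, where 15.3% of genes passed, it was 0.49 (edgeR adjusted p = 0.155). Pan-TurboID pulldowns stood at 87.0, 107 and 98.0 CPM at rest and at 81.5, 77.8 and 56.7 CPM after depolarization, with log2 changes of 0.64 (edgeR adjusted p = 0.0791) and 0.56 (edgeR adjusted p = 0.121) that passed with the culture as a block (0.00568 and 0.0163). DHPG pulldowns stood at 131, 123 and 127 CPM and overlapped their inputs, with log2 ratios in CPM of 0.09, 0.03 and -0.02. The change with TMM factors was 0.22 (SE 0.07, edgeR adjusted p = 0.00594), was 0.08 (edgeR adjusted p = 0.290) with the trend with CDS length removed, and was not called without replicate 1 or 2 (0.114 and 0.0522). In the resting knockdown the change was 0.45 (edgeR adjusted p = 0.0614, or 0.0295 with the block and 44.0% of genes called), but -0.23 (adjusted p = 0.409, with 46.1% of genes called) outside the first part of the CDS. In the depolarized knockdown it was 0.17 (edgeR adjusted p = 0.565).

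Of the gamma-secretase subunits, Ncstn was higher in the pulldown in all 12 KCl experiment cultures and all 3 DHPG cultures, and lower in all 4 knockdown cultures. Relative to the median log2 ratio of all genes, both resting knockdown cultures were lower. The depolarized ones lay at 0.002 and -0.22 on that scale, 1 above the median and 1 below. Resting TurboID-PSD95 libraries stood at 177, 154 and 162 CPM in inputs and at 234, 210 and 274 CPM in pulldowns, without overlap. Ncstn rose by 0.64 on the log2 scale (SE 0.20, edgeR adjusted p = 0.0223). It was the 1 call among the 6 genes, where 25.0% of all genes were called and 13.4% were higher. The call was lost without replicate 2 (edgeR adjusted p = 0.0834) and without replicate 3 (0.44, adjusted p = 0.336). After depolarization Ncstn stood at 216, 177 and 198 CPM in inputs and at 292, 190 and 301 CPM in pulldowns, a log2 change of 0.46 (edgeR adjusted p = 0.116, or 0.0086 with the block). Pan-TurboID gave 0.50 at rest and 0.58 after depolarization (edgeR adjusted p = 0.0944 and 0.0585, or 0.00266 and 6.06e-04 with the block).

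With DHPG, Ncstn was the most even member. Inputs stood at 136, 135 and 137 CPM and pulldowns at 168, 166 and 170 CPM, a log2 change of 0.49 (SE 0.06, edgeR adjusted p = 9.28e-07). In the knockdown, Ncstn stood at 172 and 178 CPM in resting inputs, at 150 and 138 CPM in their pulldowns, at 191 and 225 CPM in depolarized inputs and at 179 and 179 CPM in their pulldowns. These changes (-0.17 and -0.11) missed the threshold. The Ncstn values hold for its transcript with the longest CDS, and the transcript that is longest with its untranslated regions gave changes of the opposite sign from a CDS of 189 nt.

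Psen2 was the lowest of the members and the least precise. Resting TurboID-PSD95 libraries stood at 27.3, 15.5 and 25.7 CPM in inputs and at 41.3, 30.6 and 29.9 CPM in pulldowns, and depolarized ones at 25.5, 30.2 and 26.5 CPM and at 23.8, 25.6 and 23.2 CPM. Each resting pulldown was above all resting inputs, and each depolarized pulldown was below the input of its own culture. The log2 changes were 0.67 (SE 0.29, edgeR adjusted p = 0.0905, or 0.0182 with the block) and -0.13 (SE 0.30, edgeR adjusted p = 0.796). With DHPG, inputs stood at 24.0, 21.9 and 25.9 CPM and pulldowns at 32.8, 25.1 and 28.9 CPM, a log2 change of 0.45 (SE 0.12, edgeR adjusted p = 0.00228) that was not called without replicate 1 (0.0503). In the knockdown, Psen2 stood at 25.9 and 23.4 CPM in resting inputs, 20.4 and 19.9 CPM in their pulldowns, 21.3 and 13.7 CPM in depolarized inputs and 30.1 and 22.4 CPM in their pulldowns, with no call in either state.

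Where along the CDS the footprints lay differed between input and pulldown, and this bears on each ratio above. The segments of each CDS were assigned to its first, middle or last part by the position of their middle. Over 7855 genes, the median share of the count in the first part was 36.7% to 55.2% in inputs and 19.0% to 42.2% in pulldowns. In resting TurboID-PSD95 libraries 63.3% of genes had a lower share in every pulldown than in any input. This background was 35.5% in depolarized TurboID-PSD95, 63.1% and 40.8% in resting and depolarized Pan-TurboID, 78.4% in DHPG, and 70.8% and 74.2% in resting and depolarized knockdown libraries. Most members followed this. The Ncstn share went from a mean of 37.7% to 14.5% at rest and from 34.7% to 9.09% with DHPG, and that of Psen2 from 50.4% to 18.1% and from 54.5% to 15.9%. Over 7 conditions the share was lower in the pulldowns without overlap in 6 for Aplp1, Aplp2, Ncstn and Psen2, in 5 for App and in 4 for Bace1. It was higher without overlap in the resting knockdown for App (from a mean of 37.1% to 63.1%) and Bace1 (from 34.8% to 50.2%), as for 6.14% of all genes.

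The share of App in the first part fell less from input to pulldown than that of most genes in 6 of 7 conditions, and rose in the resting knockdown. This share in the first part went from a mean of 36.8% to 32.4% in resting TurboID-PSD95 libraries and from 39.9% to 37.7% with DHPG, a difference of -2.16 percentage points where the median over genes was -17.6 and 86.7% of genes had a lower difference. Over 19 cultures the median ratio of pulldown over input CPM was 0.612 in the first part of App, 0.629 in the middle and 0.632 in the last part. These medians join unlike conditions, and single cultures differed along the CDS. In resting TurboID-PSD95 replicate 2 the ratios were 0.612, 0.704 and 0.911, and in the resting knockdown the first part was above the input (1.19 and 1.37) and the last part below it (0.437 and 0.401). In Aplp1 the medians were 0.486, 0.744 and 0.990. In Aplp2 they were 0.697, 1.46 and 1.51, in Ncstn 0.544, 1.48 and 2.03, and in Psen2 0.422, 1.65 and 2.73. The last part had the higher ratio in 19 of 19 cultures for Aplp1, Aplp2, Ncstn and Psen2, and in 16 for App and Bace1. Each part was scaled to the CDS total of its library, and no such ratio or count was made over all genes. The first-part share also fell over all genes, with a median over libraries of 42% in inputs and 23.2% in pulldowns. A last-part ratio of 0.990 thus does not show a level unchanged relative to other genes. With the first part of every CDS left out, a setting added after the values were seen, resting TurboID-PSD95 pulldowns gave log2 changes of -0.80 for App (edgeR adjusted p = 0.0395), -0.63 for Aplp1 (0.0291) and 0.68 for Ncstn (0.0317), with 26.3% of genes called.

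**Figure D5:**
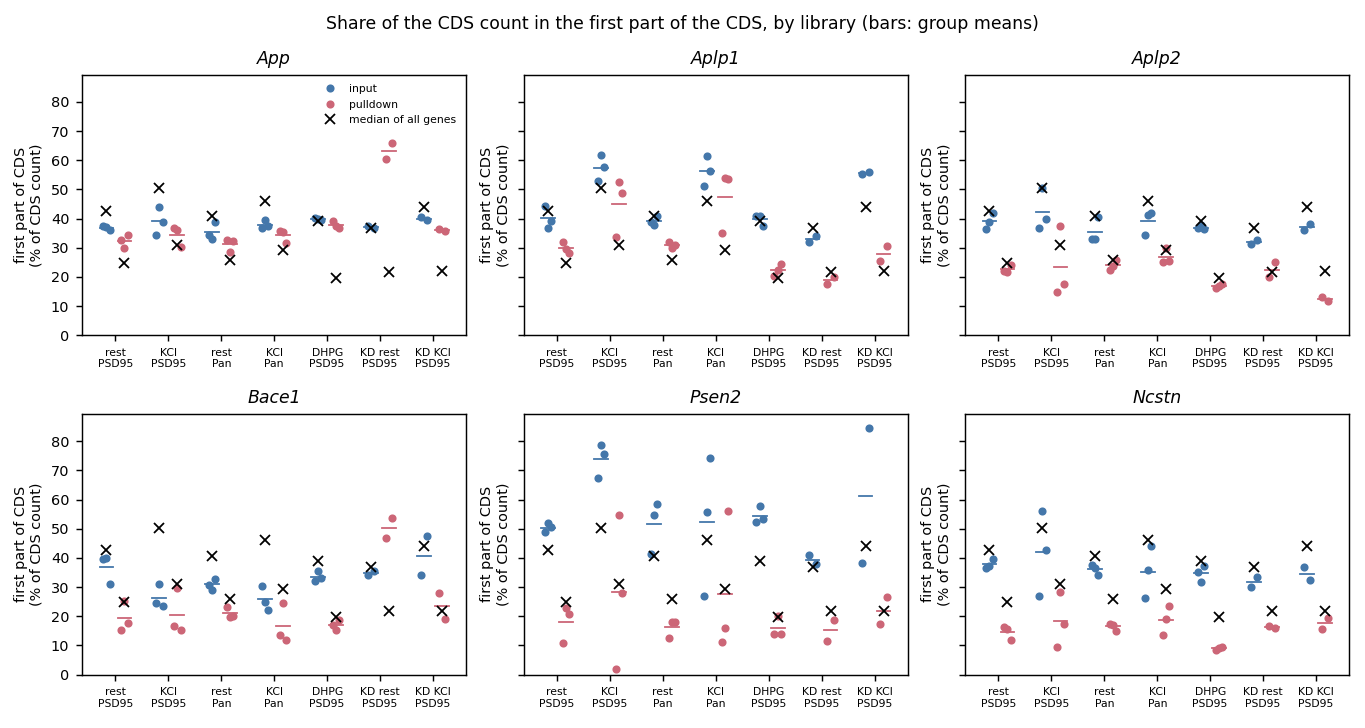
Share of the CDS count in the first part of the CDS, in percent, with 1 point per library (inputs in blue, pulldowns in red), a bar for each group mean and a cross for the median of all genes, averaged over the libraries of a group. Ncstn and Psen2 fall steeply from input to pulldown, App has group means of 31.2% to 39.9% apart from the resting knockdown pulldowns (mean 63.1%), and Aplp1 is higher in every depolarized group.

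Aplp1 footprints lay nearer the start of its CDS in depolarized than in resting libraries. The share in the first part rose from 36.8% to 44.3% in resting TurboID-PSD95 inputs to 53.0% to 61.7% in depolarized ones, from 37.9% to 40.9% to 51.1% to 61.5% with Pan-TurboID, and from 31.9% and 34.1% to 55.2% and 55.9% in knockdown inputs. In pulldowns it went from 28.2% to 31.9% up to 33.5% to 52.4% with TurboID-PSD95, from 29.9% to 32.1% up to 35.0% to 53.9% with Pan-TurboID, and from 17.7% and 19.9% to 25.4% and 30.7% in the knockdown. The depolarized libraries lay above the resting ones without overlap in 6 of 6 pairs of groups. Of all genes, 25.1%, 16.2% and 51.9% did so in TurboID-PSD95, Pan-TurboID and knockdown inputs, and 13.4%, 13.7% and 22.4% in the pulldowns. The other members did so in 0 or 1 pair. Outside the first part, Aplp1 fell with KCl in inputs by 0.59 on the log2 scale (SE 0.15, edgeR adjusted p = 0.00774), where 13.5% of genes were called.

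Footprints whose 5′ end lies in the 5′ untranslated region (5′ UTR) differed in density between these transcripts. Since 5′ ends were counted with no offset, ribosomes on the first codons are counted there as well. Relative to the density over the CDS, the 5′ UTR median over 38 libraries was 68.5% for App, 133% for Aplp1, 108% for Aplp2, 129% for Bace1 and 23.9% for Ncstn, against 128% for all genes, and Psen2 had 0 to 6 counts. In the KCl experiment the medians were higher in depolarized than in resting libraries for each of the 5 genes with counts, from 55.2% to 106% for App, 153% to 254% for Aplp1, 123% to 204% for Aplp2, 125% to 221% for Bace1 and 24.6% to 49.7% for Ncstn, and over all genes from 114% to 145%. None passed when 5′ UTR counts were tested, where 0.477% of 9846 genes were called in inputs and 0.213% in TurboID-PSD95 pulldowns. The App change in inputs was 0.78 (SE 0.33, edgeR adjusted p = 0.725). In 3′ UTRs the density was at most a median of 0.49% of that in the CDS for each member.

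The other genes of the pathway were counted in the same tests. In resting TurboID-PSD95 pulldowns, where 13.4% of all genes were higher and 11.6% lower, 4 of 7 gamma-secretase genes were higher and none lower (median 0.64 against 0.03 over all genes tested), among them Aph1c by 1.11 and Aph1a by 0.56, both scaffold subunits. None of 5 alpha- and beta-secretases passed there, with Adam10 at 0.66. Of 11 tested adaptors that bind the App tail, only Apbb1 (-0.50) was lower, and of 22 sorting and processing regulators Bsg (-0.99), Tmed2 (-0.81) and Gga1 (-0.66) were lower. Of 6 amyloid-beta degrading enzymes Ece2, an endothelin-converting enzyme, was higher by 1.18. None of 9 other Bace1 substrates passed, and of 16 other gamma-secretase substrates the proteoglycan Sdc3 (-0.99) and N-cadherin, Cdh2 (-0.63), were lower.

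With DHPG, 40.5% of all genes were higher in the pulldown and 38.9% lower, and the counts by direction that follow stand against these shares. All 5 alpha- and beta-secretases were higher in the pulldown (median 0.52 against 0.05 over all genes), led by Adam9 (0.93) and Adam10 (0.84). Of 7 gamma-secretase genes, 5 were higher, Ncstn, Aph1a (0.47) and Aph1c (0.75) among them, and Psenen, the smallest subunit, was lower (-1.01). Adaptors were mostly lower, 8 of 11, with Apba1 at -1.06, Apbb1 at -0.83 and Apba2 at -0.76, and 2 were higher, Apbb3 (0.39) and Dab1 (0.26). Of 22 sorting regulators 14 were lower, led by the reticulon Rtn4 (-1.60), Bsg (-1.69) and Gga1 (-0.97), and 5 higher, with Lrp1b (0.51), Lrp8 (0.44) and Lrp1 (0.30), all of the LDL receptor family. Other gamma-secretase substrates gave 8 lower and 6 higher of 16, and other Bace1 substrates 4 lower and 3 higher of 9.

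In depolarized knockdown pulldowns, where 24.6% of all genes were lower and 23.8% higher, 6 of 9 other substrates of Bace1 were lower, with Sez6l at -1.13, L1cam at -0.84 and Sez6 at -1.20, and Nrg1 was higher (1.20). The alpha-secretases Adam10 (0.84) and Adam9 (0.50) were higher, and Psenen was lower (-1.49). Of 11 adaptors 5 were lower and of 22 sorting regulators 12 were lower and 2 higher. After KCl, where 8.32% of all genes were lower and 7.47% higher in the inputs of untreated neurons, 5 of 11 adaptors were lower, with Apba1, an adaptor that binds the App tail and acts at synapses, at -2.48 (SE 0.16, edgeR adjusted p = 2.73e-11), Dab1 at -0.66 and Apba2 at -0.61. Bace1 was the only one of 5 alpha- and beta-secretases called there, and none of 7 gamma-secretase genes was. All 8 genes of a list of known KCl responses were higher (median 3.56).

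Across the 14 group means, genes with the most similar levels were found for each member among 9323 genes. The groups share cultures between input and pulldown, so these values are descriptions. App was closest to Cfap97 (Pearson r = 0.98, n = 14 groups) and Msantd4 (0.98), and Aplp1 to Clip2 (0.98) and Pygo1 (0.98). Aplp2 was closest to Ufsp2 (0.89) and Grm8 (0.88), Bace1 to Mib2 (0.94) and Aatk (0.93), Psen2 to Qsox2 (0.85) and Cnnm2 (0.84), and Ncstn to Emc1 (0.92) and Aph1a (0.91), the latter a partner in gamma-secretase. Among the members, r was 0.90 for App and Aplp1, where Aplp1 held rank 235 among the genes set against App. For Aplp2 and Ncstn r was 0.77, where Ncstn held rank 46 among those set against Aplp2, and for App and Aplp2 it was -0.03.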

How the data were processed

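The authors aligned trimmed reads to mm10 with Rsubread and removed ribosomal RNA and duplicates. They then used plastid to count footprints per exon segment by their 5′ ends, without an offset. The version of plastid and its use of strand are not given in the sources used here. Per the file headers, the deposited counts are whole numbers per CDS or UTR segment, in 114 files, and were not pooled. Counting without an offset moves footprints of the first codons into the 5′ UTR. Groups and replicate numbers came from the labels, which place DHPG inputs and knockdown libraries in the cytosol although their virus is TurboID-PSD95. The study's text gives a shorter biotin time for DHPG.

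From these counts, the transcript with the longest CDS was taken per gene and named by GENCODE M21 on GRCm38.p6. CDS counts were tested in edgeR 4.0.16 (R 4.3.3) with TMM factors, filterByExpr, the robust quasi-likelihood F test and Benjamini-Hochberg adjustment at 0.05. The 24 KCl libraries shared 1 fit, and other fits held 6, 12, 8 or 20 libraries. The F statistic and the fold change gave the standard errors. All 6 members, the 2 genes most like each, and at most 3 genes per list and direction with the smallest p were named. Some list genes are not reported here. The members and lists were chosen with earlier results of these data known. The test was tried on simulated counts. It recovered 28% of 2-fold and 74% of 4-fold differences for resting TurboID-PSD95 pulldowns over inputs (13059 genes), and 90% of 2-fold differences for DHPG (12349 genes). For the change of the TurboID-PSD95 ratio with depolarization it recovered 2% of 2-fold and 52% of 4-fold differences.

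Same-numbered inputs and pulldowns come from the same culture by the study's methods, so that the number pairs them. Deviations from the group means correlated at 0.30 to 0.66 in 12 KCl pairs, at -0.19 to 0.05 in 3 DHPG pairs. With 2 cultures a condition both knockdown pairs share 1 value by construction, -0.00077 at rest and 0.01 after depolarization. Fits with the culture as a block (for KCl responses, the replicate number) were alternatives, beside other normalizations, tests (DESeq2 1.42.0 among them), filters and single libraries left out. Settings by CDS part, without 2 App segments and with another transcript rule, and 2 comparisons within or across the knockdown, were added after seeing the data. The study's text calls the 3 replicates of its PL-Ribo-seq biological and does not speak of the 2 knockdown replicates. For the knockdown, p-values measure the spread between libraries, which may be technical. The DHPG inputs varied little beyond sampling noise, with a chi-square per gene of 1.47 to 1.90. Their p-values also measure the spread between libraries, and whether these come from separate cultures was not tested. A culture here means 1 replicate number of a condition.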

Additional observations from a re-analysis of the deposited data

Results flagged for a closer look

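In eIF4G2 knockdown neurons, the change of the pulldown over input ratio with depolarization passed edgeR's quasi-likelihood test for 2 members, where 3.84% of all genes passed, in a comparison added after the values were seen. It was -0.83 on the log2 scale for App (SE 0.10, adjusted p = 4.52e-06), and -0.04 (adjusted p = 0.911) without CDS segments 2 and 3, which held 45.2% and 51.7% of App counts in the resting knockdown pulldowns. It was 0.67 for Aplp2 (SE 0.11, adjusted p = 3.66e-04), with both resting cultures below 0 and both depolarized cultures above.

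Relative to the median of all genes in the same culture, every culture of 1 condition moved one way between input and pulldown and every culture of another the opposite way for 3 members, in 6 of 21 pairs of conditions for Aplp2, 6 of 21 for Psen2 and 5 of 21 for Ncstn. All such pairs of Aplp2 and of Ncstn held the resting knockdown, which has 2 cultures. Each such pair of Psen2 held either the resting knockdown or depolarized TurboID-PSD95. How many of all genes have such pairs was not counted. Most of these differences between conditions were not tested. The Aplp2 knockdown pair was tested above. For Psen2 the tested differences all missed the threshold, at -0.80 (edgeR adjusted p = 1.00) for depolarized minus resting TurboID-PSD95, 0.84 (edgeR adjusted p = 0.295) for depolarized minus resting knockdown, and 0.78 (edgeR adjusted p = 0.544) for depolarized knockdown minus depolarized untreated neurons. On that scale the mean log2 ratio of the resting knockdown minus that of the depolarized knockdown was -0.66 for Aplp2 and -0.88 for Psen2, and that of resting TurboID-PSD95 neurons minus that of the resting knockdown was 0.75 for Ncstn.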

How the results depend on the processing

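The number of the 6 genes called depended on the setting, and the cause was not tested. The share of all genes called also changed with the setting, though not always the same way. In depolarized TurboID-PSD95 the last parts of each CDS gave 15.3% against 12.8%, while the members called went from 2 to 0. For most other settings the share of all genes called is not given here. The counts that follow are therefore not read as results about the 6. Without replicate 3 the share of all genes called went from 25.0% to 0.00753% in resting and from 12.8% to 0.0226% in depolarized TurboID-PSD95. With the block it went to 42.2% and 34.7%. For resting TurboID-PSD95 pulldowns over inputs 1 gene was called, and 0 with no filter on low counts, 2 with the trend with CDS length removed, 3 with DESeq2, with only the libraries compared, with the last parts of each CDS or with the mean of both baits' inputs, 5 with the replicate block and 4 with the block and the length trend removed. For depolarized TurboID-PSD95 the 2 called became 1 with no filter, 0 with the length trend removed, with only the libraries compared or with the last parts of each CDS, and 5 with the block. With Pan-TurboID none was called, but at rest 3 with only the libraries compared, 4 with the block and 3 with the block and the length trend removed, and after depolarization 1 by the likelihood ratio test, 1 by DESeq2, 4 with the block and 4 with the block and the length trend removed. For KCl in inputs the 1 called became 2 with the length trend removed, with or without the block, and for KCl in Pan-TurboID pulldowns 0 became 1 with both. The 2 called in resting knockdown pulldowns became 4 with the length trend removed, with or without the block. DHPG inputs against rest went from 1 to 2 with only the libraries compared or with the last parts of each CDS, and resting knockdown inputs against untreated inputs from 0 to 1 with only the libraries compared. The 2 whose knockdown enrichment changed with depolarization became 1 with the last parts of each CDS or without the 2 App segments. Depolarized knockdown enrichment against untreated went from 0 to 1 with the block, alone or with the length trend removed (App, -0.77, edgeR adjusted p = 0.042 with the block). Leaving out 1 replicate gave 0 to 1 genes for resting and for depolarized TurboID-PSD95, 0 to 1 for KCl in inputs, 3 to 6 against 6 for DHPG, 1 to 2 for DHPG inputs against rest, 1 to 3 against 3 for KCl in knockdown inputs, and 0 to 1 against 0 both for resting knockdown inputs against untreated inputs and for depolarized knockdown enrichment against untreated.

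With the other transcript rule, Ncstn changed sign over input, to -1.35 and -1.43 with TurboID-PSD95 at rest and after depolarization, -1.37 and -0.91 with Pan-TurboID, and -1.63 with DHPG, from a CDS of 189 nt. Aplp2 with DHPG turned to -0.26 with the length trend removed, with or without the block, Bace1 in resting knockdown pulldowns to -0.23 and Psen2 in depolarized knockdown inputs against untreated ones to 0.0611 with the last parts of each CDS. The causes were not tested. Of the other values of single genes under an alternative, 1065 kept their direction and side of the threshold, 73 newly passed and 53 no longer passed. Depth limits Psen2 most, with as few as 32 counts in a library.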
